A study of Drosophila melanogaster with 8 samples.

Results

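The euchromatic arm of chromosome 2L was described as every H3K9me2 region whose midpoint lay at least 1 Mb from the outer end of the 2L sequence and more than 5 Mb from its inner, centromeric end, a stretch of 17.5 Mb. Of 31871 regions in the 3 deposited lists, 1659 met this rule. They were 604 regions with more H3K9me2 in NelfA*/+ flies (here called NelfA-higher), 48 regions with more in control siblings (control-higher) and 1007 common regions found in both genotypes. The rule used position only, and no measured value.

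The series compared H3K9me2 by ChIP-seq between 2 genotypes, using male heads collected at Day 50 of adult life. NelfA*/+ flies carried 1 copy of the Nelf-A KG09483 transposon insertion, and their control siblings carried none (+/+). Both came from the same crosses after many generations of backcrossing to w1118, and neither received a drug or a driver line. Each genotype had 2 ChIP libraries, made with antibody ab1220 from pooled heads, and 2 input libraries. The heads were not sorted, so a region can reflect any cell type of the head, and a change in the share of a cell type cannot be told apart from a change of the mark within cells. The lists give positions and 1 score per region and no value per library. The spread between replicates and the depth are therefore unknown, no difference between genotypes could be tested here, and all values below are descriptions of the lists. Positions are on build BDGP6 (dm6), counted from 1.

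Methylation of lysine 9 on histone H3 is the mark that HP1 proteins read to keep chromatin compact and silent. In flies the mark is densest over the repeats around the centromeres and is sparse along the gene-rich arms, where it is found as islands over silenced genes and inserted transposable elements (TEs). NELF-A belongs to the NELF complex, which pauses RNA polymerase II shortly after transcription begins.

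The sequences below were chosen because they carry the most extreme regions of the arm: the NelfA-higher regions of CG7227, dpp, Muc26B, Col4a1 and Samuel and the control-higher regions between genes and in Tep3 were among the 10 highest scores of their lists, vkg held the next-to-longest NelfA-higher region and dpy the longest common region. Each is written 5′ to 3′ on the plus strand of the RefSeq copy of the assembly, whole where the region was shorter than 300 bases and otherwise as its central 300 bases. Capitals mark GAGAG, the element bound by GAGA factor, CAGCAG, a trinucleotide repeat, and CACACA, a dinucleotide repeat. Reading frame was not considered, so a mark does not name the amino acids encoded. Each was searched on either strand, so its reverse complement is in capitals too, CTCTC for the first, CTGCTG for the next and TGTGTG for the last.
CG7227, NelfA-higher, chr2L:7996426-7996706: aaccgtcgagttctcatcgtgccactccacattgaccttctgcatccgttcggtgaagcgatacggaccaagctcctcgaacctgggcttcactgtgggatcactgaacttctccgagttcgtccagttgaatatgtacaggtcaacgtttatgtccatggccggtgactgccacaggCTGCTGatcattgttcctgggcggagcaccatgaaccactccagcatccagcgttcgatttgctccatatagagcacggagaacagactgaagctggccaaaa
dpp, NelfA-higher, chr2L:2457940-2458239: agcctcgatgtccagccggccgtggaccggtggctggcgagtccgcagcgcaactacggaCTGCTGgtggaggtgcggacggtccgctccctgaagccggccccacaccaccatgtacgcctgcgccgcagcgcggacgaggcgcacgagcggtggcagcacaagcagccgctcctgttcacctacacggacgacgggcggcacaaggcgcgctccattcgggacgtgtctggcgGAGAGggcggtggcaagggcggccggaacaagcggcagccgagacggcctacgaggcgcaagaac
Muc26B, NelfA-higher, chr2L:6152879-6153178: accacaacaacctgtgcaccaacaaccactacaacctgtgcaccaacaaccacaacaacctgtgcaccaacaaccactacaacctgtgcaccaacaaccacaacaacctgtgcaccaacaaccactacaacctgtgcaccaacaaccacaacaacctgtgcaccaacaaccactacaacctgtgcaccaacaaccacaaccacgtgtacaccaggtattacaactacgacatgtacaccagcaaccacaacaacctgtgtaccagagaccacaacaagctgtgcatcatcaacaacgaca
Col4a1, NelfA-higher, chr2L:5032696-5032995: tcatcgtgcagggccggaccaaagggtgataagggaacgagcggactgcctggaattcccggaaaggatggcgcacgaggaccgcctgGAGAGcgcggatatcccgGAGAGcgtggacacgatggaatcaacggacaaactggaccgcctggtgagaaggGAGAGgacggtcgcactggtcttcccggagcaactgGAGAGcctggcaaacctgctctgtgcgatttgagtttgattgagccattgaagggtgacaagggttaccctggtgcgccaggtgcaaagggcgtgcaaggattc
Samuel, NelfA-higher, chr2L:11014293-11014592: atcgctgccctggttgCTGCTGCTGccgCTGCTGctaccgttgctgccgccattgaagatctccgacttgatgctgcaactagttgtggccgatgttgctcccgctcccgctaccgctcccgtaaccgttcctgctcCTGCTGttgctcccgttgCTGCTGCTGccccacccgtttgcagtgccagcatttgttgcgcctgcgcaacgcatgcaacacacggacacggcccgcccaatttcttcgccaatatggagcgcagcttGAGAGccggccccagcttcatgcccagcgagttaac
vkg, NelfA-higher, chr2L:5017446-5017745: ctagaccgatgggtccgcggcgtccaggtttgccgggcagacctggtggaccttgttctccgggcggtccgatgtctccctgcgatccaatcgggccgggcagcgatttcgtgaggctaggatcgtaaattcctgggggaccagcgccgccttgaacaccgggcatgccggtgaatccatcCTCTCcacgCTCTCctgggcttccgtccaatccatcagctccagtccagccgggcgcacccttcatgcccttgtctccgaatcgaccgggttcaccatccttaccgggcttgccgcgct
Intergenic, control-higher, chr2L:7325200-7325442: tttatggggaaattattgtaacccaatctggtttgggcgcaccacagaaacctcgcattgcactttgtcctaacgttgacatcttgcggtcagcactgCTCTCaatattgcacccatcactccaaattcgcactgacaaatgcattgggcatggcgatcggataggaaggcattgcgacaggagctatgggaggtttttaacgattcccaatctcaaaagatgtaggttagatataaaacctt
Tep3, control-higher, chr2L:7708239-7708469: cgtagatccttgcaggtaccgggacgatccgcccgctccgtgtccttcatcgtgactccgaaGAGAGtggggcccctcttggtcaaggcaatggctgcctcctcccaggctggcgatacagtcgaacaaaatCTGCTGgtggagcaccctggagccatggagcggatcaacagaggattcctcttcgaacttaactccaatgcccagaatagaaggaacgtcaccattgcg
dpy, common, chr2L:4505249-4505548: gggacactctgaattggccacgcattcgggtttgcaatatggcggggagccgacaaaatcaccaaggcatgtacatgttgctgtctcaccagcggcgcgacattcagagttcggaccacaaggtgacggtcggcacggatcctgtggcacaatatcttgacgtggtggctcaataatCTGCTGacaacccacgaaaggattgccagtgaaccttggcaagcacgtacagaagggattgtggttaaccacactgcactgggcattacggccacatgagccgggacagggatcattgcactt

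All of these stretches except the intergenic one lay wholly in coding sequence, and none held UTR bases. The dpp stretch had a GC content of 70.7% and the vkg stretch 64%, against 44.9% in the intergenic control-higher region. The Muc26B stretch, which encodes part of a mucin, was a tandem repeat: shifted by 24 bases it matched itself at 83.3% of positions. Col4a1 encodes a type IV collagen chain of basement membranes, and its stretch held GAGAG 4 times. In Samuel, CAGCAG or its complement started 6 times.

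Most differential regions of the arm were NelfA-higher. They made up 604 of 652 differential regions, a share of 92.6%, or 12.6 for each control-higher region. As a share of all regions of the arm, 36.4% were NelfA-higher, against 29.4% over the whole series. Control-higher regions were 2.89% of the arm's regions, against 5.64% over the whole series. The NelfA-higher share of differential regions was 91.2% on the euchromatic arm of 3L, 93.3% on 3R and 94.7% on X. The 2L value lay between those of the other arms, and the differences among arms were not tested.

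NelfA-higher regions were short as called, though many overlapped common regions or lay in chains, as given below. They covered 211 kb, or 1.20% of the arm, control-higher regions covered 11.8 kb (0.0674%) and common regions 454 kb (2.59%). NelfA-higher regions had a median length of 300.5 bp (200 to 1681) and control-higher regions 231.5 bp (200 to 408), where 200 bp is the shortest the calling allowed. Common regions had a median of 352 bp and reached 4801 bp. The deposited score, whose scale is not named, had a median of 2.34 (1.17 to 8.65) in NelfA-higher regions and 2.01 (1.25 to 5.86) in control-higher regions. A score of at least 3 was held by 155 NelfA-higher regions (25.7%) and 6 control-higher regions (12.5%).

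At the outer limit of the arm, the first NelfA-higher region inside lay 62 kb from the limit with a score of 1.89, and the first outside lay 43.4 kb away with a score of 2.24. At the inner limit the nearest NelfA-higher region lay 0.736 kb inside (score 2.08), and the next one lay 101.6 kb outside (score 3.03). The nearest control-higher regions were 498 kb inside and 213 kb outside the outer limit, and 5.67 kb inside and 328 kb outside the inner limit.

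Coding sequence carried most of the regions. The midpoint lay in coding sequence in 420 NelfA-higher regions (69.5%), 23 control-higher regions (47.9%) and 660 common regions (65.5%), while coding bases make up 18.9% of the arm. For NelfA-higher regions this was 3.68 times the share of coding bases in the arm, and for control-higher regions 2.53 times. Counted in bases, 71.9% of NelfA-higher sequence was coding, 50.1% of control-higher sequence and 70.8% of common sequence. On the other arms the coding share of NelfA-higher midpoints was 63.2% (3L), 66.6% (3R) and 78.9% (X).

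Midpoints were also placed in gene features in the order promoter (within 1 kb of a transcription start), coding exon, noncoding exon, intron and intergenic. NelfA-higher regions fell in promoters in 161 cases (26.7%), the same share as that of promoter bases in the arm (26.7%), and 109 of these midpoints were also coding. Coding exons away from promoters held 311 (51.5%), against 11.5% of arm bases. Introns held 56 (9.27%), against 34.3% of arm bases, intergenic sequence held 73 (12.1%), against 23.3%, and noncoding exons held 3. Of the 48 control-higher regions, 13 lay in promoters, 15 in coding exons, 5 in introns and 15 in intergenic sequence. The plot of features shows that coding exons stood above, and introns below, their share of the arm in all 3 classes.

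**Figure D1:**
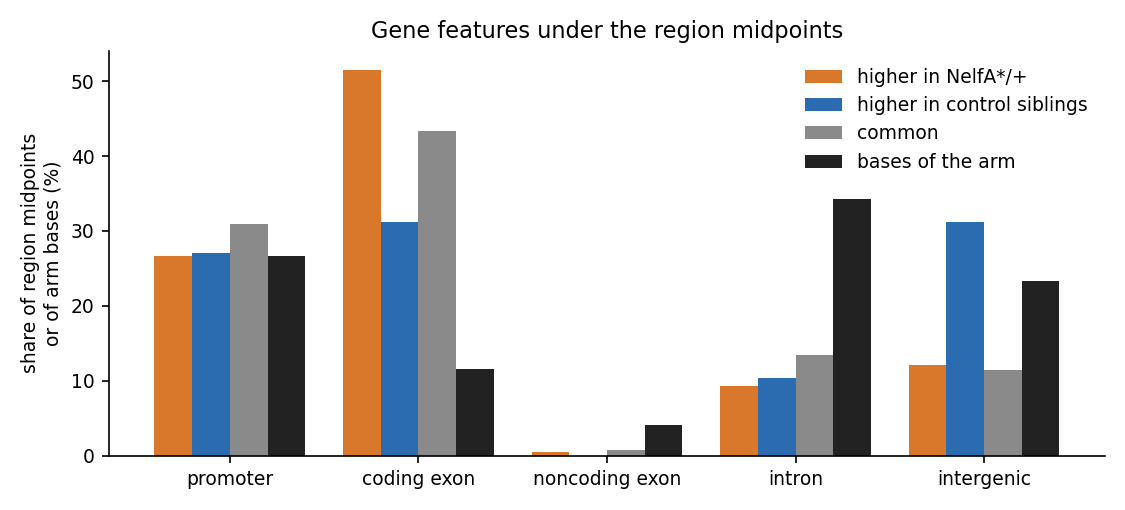
Share of region midpoints (%, vertical axis) in each gene feature for the 604 NelfA-higher, 48 control-higher and 1007 common regions, beside the share of arm bases (black). Coding exons held 51.5% of NelfA-higher midpoints against 11.5% of arm bases, and introns 9.27% against 34.3%.

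NelfA-higher midpoints often lay in long coding exons. The coding exon under a NelfA-higher midpoint had a median length of 1076 bp, against 221 bp over all 8155 coding exons of the arm. A longer exon offers more bases, so the fitting background is by base: 52.4% of coding NelfA-higher midpoints lay in exons of at least 1 kb, which hold 36.8% of coding bases. The corresponding share was 47.8% for control-higher and 48.0% for common regions.

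Base composition differed between the lists in the same direction as coding content. Median GC content was 53.8% in NelfA-higher, 48.9% in control-higher and 53.0% in common regions, against 41.7% in windows of 300 bp along the arm. Coding bases of the arm had a GC content of 52.6% and all other bases 39.4%. When the 652 differential regions were split by GC content into 3 parts of 217 or 218, the NelfA-higher share was 85.8% in the low part, 94.0% in the middle and 98.2% in the high part, which held 4 control-higher regions. NelfA-higher regions with the midpoint in coding sequence had a median GC content of 55.3%, and those elsewhere 51.0%, still above the arm's windows. For control-higher regions these medians were 51.4% (23 regions) and 46.3% (25 regions), and for common regions 54.2% and 50.4%. GC content moved with the split between genotypes, and its part in that split was not tested.

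**Figure D2:**
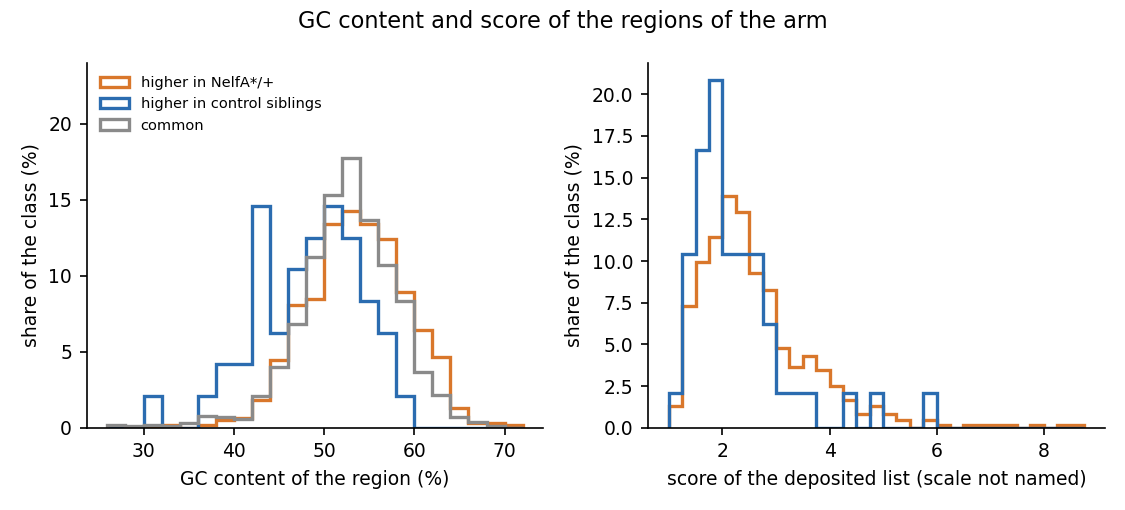
Left, GC content of each region (%, horizontal axis) as a share of its class (%, vertical axis); right, score of the differential regions in the deposited lists (scale not named). NelfA-higher (orange) and common (grey) regions centred near 53.8% and 53.0% GC and control-higher regions (blue) near 48.9%, and scores above 6 occurred only in the NelfA-higher list.

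The 3 short motifs are read here against windows of the same length. GAGAG or its complement occurred in 31.3% of NelfA-higher midpoint windows of 300 bp, 35.4% of control-higher and 35.4% of common windows, against 29.1% of all windows of the arm and 34.6% of windows with a GC content of at least 50%. CAGCAG occurred in 32.3% of NelfA-higher windows, which lay between 22.2% of all windows and 40.4% of the GC-rich ones. CACACA occurred in 18.2%, against 22.6% of all windows and 18.9% of the GC-rich ones. A match describes letters only and is not a binding site.

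NelfA-higher regions lay along the whole arm in step with common regions. In the 17 full windows of 1 Mb, their number ranged from 11 to 92 with a median of 31. The fewest lay in the outermost window (chr2L:1000001-2000000) and the most in the window that holds the gene dpy (chr2L:4000001-5000000). Across the 17 windows, which share their libraries, the count of NelfA-higher regions had a Pearson correlation of 0.946 with that of common regions (Spearman 0.846), and 0.902 without the dpy window. With the share of coding bases the correlation was 0.541 and with the number of genes 0.218. Without the dpy window these were 0.569 and 0.450. NelfA-higher regions made up 29.1% to 42.4% of all regions in these windows. Control-higher regions numbered 0 to 6 per window, with a median of 3.

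**Figure D3:**
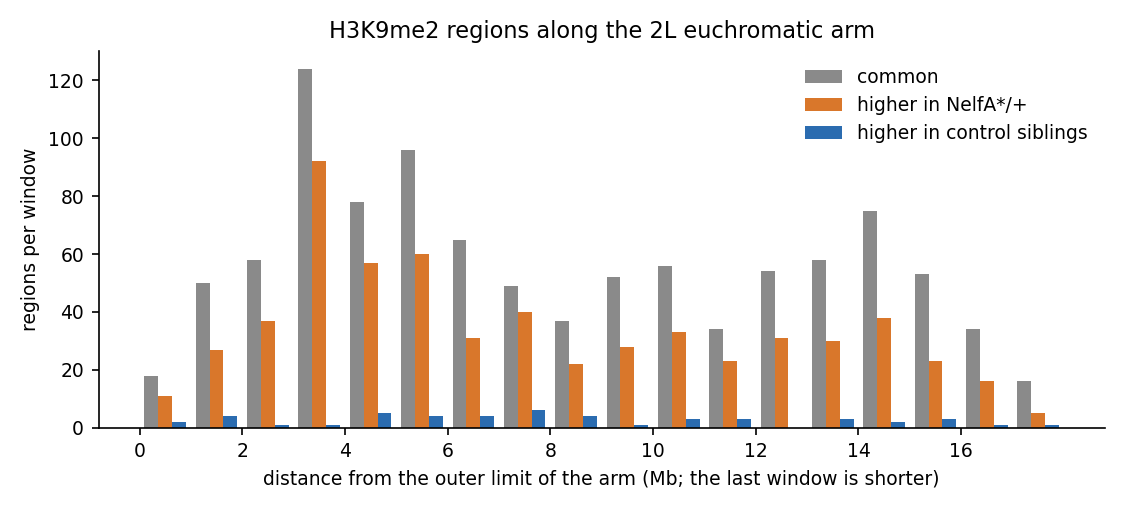
Regions per 1 Mb window (vertical axis) against the distance of the window from the outer limit of the arm (Mb, horizontal axis) for common, NelfA-higher and control-higher regions. Common and NelfA-higher counts peaked in the same window, with 124 and 92 regions, and control-higher counts stayed between 0 and 6.

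Common H3K9me2 was usually close by. Of the 604 NelfA-higher regions, 301 (49.8%) shared 1 bp or more with a common region, 446 (73.8%) lay within 1 kb of one and 36 lay wholly inside one. Only 49 (8.11%) were more than 10 kb from any common region. Of the control-higher regions, 15 (31.3%) overlapped a common region and 10 (20.8%) were more than 10 kb away. NelfA-higher regions that overlapped a common region had a median score of 2.12, against 2.71 for those apart. Across the 604 regions the score had a Pearson correlation of −0.472 with the share of the region that was common (Spearman −0.499), while with length it was 0.0514 and with GC content 0.0817. The score and the common list come from the same comparison of signal, so the first of these correlations is not between independent measures.

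NelfA-higher regions formed chains. Joined where less than 10 kb apart, they made 232 chains, of which 122 were lone regions, and 34 chains of at least 5 regions held 290 regions (48.0%). The longest chain held 56 regions over 85.9 kb of dpy. The next held 17 regions over 44.3 kb (chr2L:16774493-16818828), with 8 in the muscle myosin gene Mhc and 5 in CG13280. A chain of 12 spanned dpp and its flank (chr2L:2439302-2467792), and another 12 spanned Tsp and AkhR (chr2L:6687077-6716305). Tied for the next place were chains of 10 regions in Msp300 and around sna, where 2 of the 10 were in the gene itself. At the other extreme, the largest stretch without a NelfA-higher region was 516 kb long (chr2L:16924495-17440499) and held 47 genes, 3 common regions and 1 control-higher region.

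At the level of genes, 286 of 2726 genes of the arm (10.5%) had a NelfA-higher region in the gene body, against 11.9% of genes on the euchromatic arms of 3L, 3R and X. Of these 286 genes, 186 had 1 region, 55 had 2 and 45 had 3 or more. The gene bodies held 514 of the 604 regions (85.1%), and genes make up 70.1% of the arm. Control-higher regions lay in 34 genes, and 15 genes had both kinds. Protein-coding genes with a NelfA-higher region (270 of 2038) had a median length of 4.29 kb and those without 1.84 kb. Over all 2726 genes the median was 1.46 kb.

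Coding length went with the share of genes that had a region. A NelfA-higher region was present in 50 of the 873 genes with under 1 kb of coding sequence (5.73%), in 140 of the 934 with 1 to 3 kb, in 57 of the 187 with 3 to 6 kb (30.5%) and in 23 of the 44 with 6 kb or more (52.3%). Control-higher regions showed the same order at lower shares, from 0.458% to 6.82%. A longer gene offers more bases in which a region can fall, and these shares are not corrected for that.

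The 10 genes with the most NelfA-higher regions held 142 of them (23.5%). dpy (dumpy), a giant matrix protein that anchors epithelia and tendon cells to the cuticle, had 58. Msp300, the nesprin that positions nuclei and organelles in muscle, had 21 with scores of 1.27 to 4.49, beside 34 common and 2 control-higher regions. Samuel had 11 in 53.8 kb, of which only 2.99 kb is coding, with scores up to 5.78.

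Mhc, the muscle myosin heavy chain, had 8 regions with scores of 1.32 to 4.87. dpp, the BMP ligand that patterns limbs and the embryonic axis, also had 8, with scores of 1.20 to 7.98. wb, a laminin alpha chain, had 8 with scores of 1.19 to 6.19. dpp and wb had no control-higher region in the gene body, and Mhc and Samuel had 1 each, with scores of 1.76 and 1.66.

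The last 4 genes of this group had 7 regions each. Dhc36C, an axonemal dynein heavy chain, had scores of 1.45 to 3.25. Tsp (thrombospondin), which links muscle to tendon matrix, reached 7.30. ft (fat), the giant cadherin of Hippo and planar polarity signalling, reached 3.49. uif (uninflatable), a transmembrane protein of tracheal cells, reached 3.68 and held the longest NelfA-higher region of the arm, 1681 bp. Of these 4 genes, only uif had a control-higher region in the gene body, with a score of 1.89.

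dpy lies on the minus strand at chr2L:4477462-4614300 (24F4-25A1) and spans 137 kb with 68.8 kb of coding sequence in 81 blocks. Its 58 NelfA-higher regions were 9.60% of those of the arm, and 0 control-higher regions overlapped it. Of the 58, 50 had the midpoint in coding sequence. NelfA-higher regions covered 28.7% of its coding bases and 3.67% of the others, and common regions covered 57.1% and 10.7%. Together the lists covered 76.5% of the coding bases. In scores, the NelfA-higher regions of dpy ranged from 1.17 to 4.64 with a median of 2.27, near the median of 2.34 over the arm.

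The first NelfA-higher region of dpy was centred 26.9 kb after the outermost gene start and the last 134.6 kb after it. The map of dpy shows that the upstream part of the gene, with little coding sequence, held few regions. Coding blocks between 67.4 and 80.7 kb also held few. The longest of these, 6.49 kb with a GC content of 45.2%, held 2 NelfA-higher and 2 common regions. Of the 58, 45 overlapped 1 of the 70 common regions of the gene. Coding bases of dpy had a GC content of 53.2% and the other bases 40.0%. The gene encodes many similar protein repeats, and 9.76% of its 100-base words occurred more than once in the reference genome, counted on either strand.

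**Figure D4:**
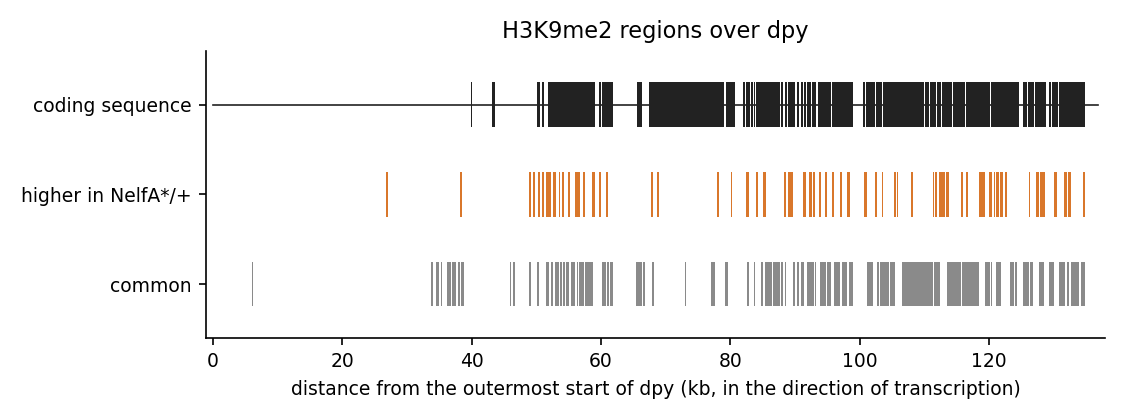
Coding blocks of dpy (black), the 58 NelfA-higher regions (orange) and the 70 common regions (grey) against the distance from the outermost start of the gene (kb, in the direction of transcription). Regions of both classes are dense over much of the coding sequence. They are sparse in the first 40 kb and in the coding blocks between 67.4 and 80.7 kb.

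Not every gene with a long coding sequence carried a region. Of the 20 genes of the arm with the longest coding sequence, a group chosen after the values were seen, 12 had a NelfA-higher region and held 123 of them. Among the 12 was CadN, whose 2 regions both lay within an inserted F element and not in its coding sequence. The other 8 of the 20 genes had none, among them poe, tweek, btv, bchs, Ca-alpha1D, Ufd4 and toc. What some of them do is known. tweek is needed for synaptic vesicle recycling, Ca-alpha1D is an L-type calcium channel subunit, bchs is a BEACH-domain protein of autophagy and Ufd4 is a ubiquitin ligase. poe had 16.0 kb of coding sequence and tweek 15.5 kb, as much as ft with 15.4 kb and 7 regions, and neither had a region of any list. Only btv (4) and toc (3) had common regions. Coding GC content overlapped between the 12 genes (47.4% to 58.7%, median 52.4%) and the 8 genes (49.0% to 54.6%, median 50.3%).

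**Figure D5:**
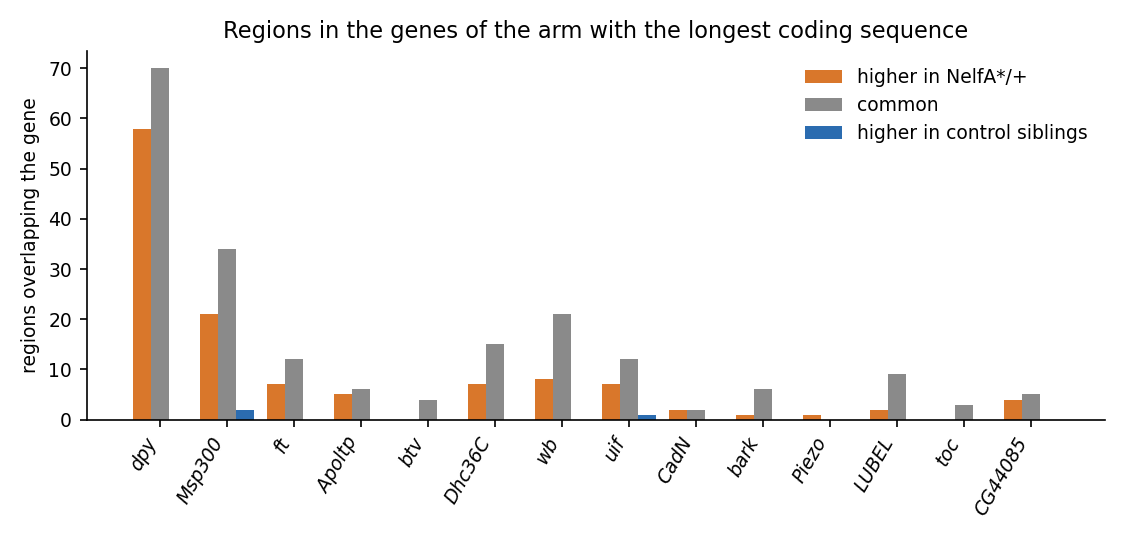
Number of NelfA-higher, common and control-higher regions overlapping those of the 20 genes with the longest coding sequence that had a region of any list (14 genes), ordered by coding length from left to right. Regions were frequent in dpy (58 NelfA-higher) and Msp300 (21), and the 6 genes with 0 regions in all classes, among them poe and tweek, are not drawn.

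The highest score of the arm, 8.65, belonged to a region of 281 bp in the coding sequence of CG7227 (chr2L:7996426-7996706), which also overlaps the antisense RNA gene asRNA:CR44996 and abuts a common region. An intergenic region at chr2L:15388567-15388843, 7.49 kb from lncRNA:CR44859, followed with 8.30. Next was the coding region of dpp (chr2L:2457890-2458290, 401 bp), with 7.98 and a GC content of 68.6%. Of the 10 highest-scoring NelfA-higher regions, 8 held coding bases, 2 were intergenic and 4 overlapped a common region.

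The rest of the 10 were in Tsp (7.30), Muc26B (7.20), a TE of the HMS-Beagle family (6.96), Col4a1 (6.57), wb (6.19) and Samuel (5.78, and 5.77 where it overlaps Acp32CD). In the Muc26B region, 32.6% of the 100-base words occurred more than once in the reference. In the HMS-Beagle region this was 100%. The 5 longest NelfA-higher regions lay in coding exons of uif (1681 bp), vkg (1393 bp), CG34398 (1333 bp), salr (1293 bp) and Mhc (1223 bp).

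vkg and Col4a1, neighbours at 25C1, encode the type IV collagen chains of the fly. vkg had 4 NelfA-higher and 4 common regions, among them a common region of 2839 bp. Col4a1 had 6 NelfA-higher and 6 common regions. Neither overlapped a control-higher region. Beside vkg, the 5 longest common regions lay in dpy (4801 and 2161 bp), Msp300 (2488 bp) and CG34124 (2434 bp).

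The 10 highest-scoring control-higher regions had a median length of 216 bp, and 0 of them overlapped a common region. The highest score, 5.86, was at chr2L:7325200-7325442, an intergenic site 3.50 kb from lncRNA:CR45304 and between wg and Wnt6. Tep3, a complement-like secreted protein of the immune response, followed with 4.84 in coding sequence (chr2L:7708239-7708469). The others were in an intron of CG31663 (4.31), near lncRNA:CR43314 (3.69), at the promoter of RapGAP1 (3.44), in CG14014 (3.09), LManII (2.96) and mtsh (2.89), 15.6 kb from SoxN (2.79) and in an intron of Tps1, the trehalose-6-phosphate synthase (2.74). Coding bases were present in 4 of these 10 regions, and their median GC content was 50.0%, against 55.7% in the 10 highest-scoring NelfA-higher regions.

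Lists of genes with known roles were counted with a margin of 1 kb around the gene. With that margin 13.9% of all genes of the arm had a NelfA-higher region, 19.4% a common region and 2.02% a control-higher region. Median gene length is given for each list, since it was above the 1.46 kb of all genes in all 5 lists.

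The list of chromatin and silencing held 10 genes on the arm: the gene of HP1a, the reader of the mark, piwi and aub of the transposon-silencing pathway, Sirt1, esc, escl, Sfmbt, chm, Hel25E and vig. Of these, 0 of 10 had a region of any list, with a median gene length of 3.82 kb. Over all genes of the arm the shares within 1 kb were 13.9% for NelfA-higher and 19.4% for common regions. The share with a region of any list was not counted. A list of 10 genes is small, and whether its count differs from the background was not tested.

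In the signalling and planar polarity list, 7 of 10 genes had a NelfA-higher region, 7 a common region and 1 a control-higher region. Their median length was 18.9 kb. After dpp (8) and ft (7), the Wnt ligands followed. Wnt4 had 2 regions (scores 2.26 and 3.65), wg had 2 (1.46 and 3.58), Wnt10 had 1 (4.92) and Wnt6 had 1 (1.41). These 4 Wnt genes lie close together on the arm, and all had common regions too. Pvr, the PDGF and VEGF receptor homologue, had 2 NelfA-higher regions and 1 control-higher region.

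Developmental transcription factors had a NelfA-higher region in 8 of 24 genes and a common region in 8, with a median length of 10.2 kb. bowl and salr had 3 each, and prd, sna and sob had 2 each in the gene body. In prd, a pair-rule factor of segmentation, NelfA-higher regions covered 43.4% of the gene, in sob 40.4% and in sna, the mesoderm factor Snail, 31.8%. sna reached a score of 4.87. salm had 1 NelfA-higher region, 1 control-higher region (score 1.58) and no common region. The sna relatives esg and wor had a NelfA-higher region only in the 1 kb beside the gene.

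The neuronal list also holds glutamate receptor genes of the neuromuscular junction. In it, 7 of 20 genes had a NelfA-higher region, 9 a common region and 0 a control-higher region. Their median length was 32.0 kb. GluRIIA, a glutamate receptor subunit of the neuromuscular junction, had 3 (up to 4.89), and its neighbour GluRIIB had 1. fred had 3, and the neuronal cadherin CadN had 2 in 131 kb, both wholly within an inserted F element. Trim9 had 2, of which 1 lay wholly within an opus insertion. All 100-base words of these TE regions occurred more than once in the reference, and without regions in TE copies the count was 6 of 20 genes, CadN being the gene lost. The clock gene tim had 2 in coding sequence and CadN2 had 1. Among genes of the list without any were ninaC of the photoreceptors, the synaptic vesicle gene Syt1 and the glial glutamate transporter Eaat1.

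Immune and stress genes had a NelfA-higher region in 7 of 15 cases, a common region in 10 and a control-higher region in 1 (Tep3). Their median length was 4.29 kb. Hsp60C, a mitochondrial chaperonin, had 2 (scores 2.43 and 3.62). Idgf3, an imaginal disc growth factor of the chitinase family, had 2. Of the listed Nimrod genes, NimA, NimB2 and NimC2 had 1 each, with a score of 4.09 in NimC2, and NimB1 and NimC1 had common regions only. Nimrod genes outside the list, NimB4, NimB5 and NimC3, also had NelfA-higher regions, with a score of 4.84 in NimC3. dl, the NF-kB factor Dorsal, had 1, and Idgf2 had 1 within 1 kb only. Tep2, the neighbour of Tep3, had 4 common regions and no differential one.

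Inserted TEs took a small part of the regions as called. At least 1 bp of an annotated TE copy was present in 18 NelfA-higher regions (2.98%), 2 control-higher (4.17%) and 37 common regions (3.67%), while TE bases make up 3.04% of the arm. Of 241 copies, 11 (4.56%) carried a NelfA-higher region, against 6.78% of copies on the arms of 3L, 3R and X. All 11 were at least 1 kb long. Among the 104 copies of that length the share was 10.6%, and among the 137 shorter ones it was 0. Common regions were present in 20 of the 104 (19.2%) and in 1 of the 137.

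Among families with at least 3 copies, HMS-Beagle had a NelfA-higher region in 2 of 4 copies and opus in 2 of 5, both LTR retrotransposons. BS had it in 1 of 3, G2 in 1 of 3, Quasimodo in 1 of 4, F in 1 of 7 and blood in 1 of 7. The HMS-Beagle copy at chr2L:12558375-12565446 held 4 NelfA-higher regions, the most of any copy. A NelfA-higher region was present in 0 of 13 roo copies, 0 of 12 Doc copies, 0 of 8 copia copies and 0 of 88 short INE-1 copies. At the 10.6% of copies of at least 1 kb, or 0 of 137 shorter ones, such small families can hold none, and no family is set apart by these counts. copia and INE-1 each had 1 copy with a control-higher region. Repeated sequence, TEs included, was also a small part. A 100-base word that occurred more than once in the reference was present in 32 NelfA-higher regions (5.30%), 2 control-higher and 58 common regions. Over the arm 3.80% of words were repeated. How reads that map to more than 1 place were counted is not given in the sources used here. The part of mapping in the TE and repeat counts was not tested.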

How the data were processed

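Per the labels and the study's methods, the authors mapped reads to BDGP6 with STAR 2.5 end to end without introns, called broad H3K9me2 peaks with MACS2 2.1.1 and derived both differential lists and the common list with MACS2 bdgdiff (gap 100 bp, shortest region 200 bp). That command compares signal tracks and uses no spread between replicates. The depths passed to it, and whether replicates were pooled, are not given in the sources used here. The score in the deposited lists is 1 value per region made by the authors from that comparison, and its scale is not named. A list was tied to a genotype by its number of regions, which equals the number the study states for that class.

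Here the regions of the arm were taken by midpoint and joined to the Ensembl annotation of BDGP6 (release 115) and the RefSeq sequence of the same assembly. Overlap meant 1 bp or more. Promoters reached 1 kb either side of a transcription start. Python 3.11.15, numpy 2.4.6, pandas 2.3.3 and scipy 1.17.1 were used, and overlaps, distances and repeated words were tested on simulated data. The members, gene lists and rules were chosen with earlier results of these data known. Named were the 10 highest-scoring regions of each differential list, the 5 longest NelfA-higher and common regions, the 10 genes with the most NelfA-higher regions, list genes with a region, the 5 largest chains (6 with a tie) and TE families of at least 3 copies. Alternatives were other thresholds on score, length, overlap, distance and the limits of the arm. Coverage tracks and input reads were not used here.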

Additional observations from a re-analysis of the deposited data

How the results depend on the processing

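No paired analysis was possible because the lists hold 1 score per region for both genotypes and no value per library, and for the same reason no replicate could be left out. Of 41 alternatives over 9 results, 27 moved the value by less than the 95% exact binomial or order-statistic interval of the main value (for gene counts, by less than 1.5 times), an interval that treats neighbouring regions as independent. The other 14 moved further. The NelfA-higher share of differential regions was 94.6% with scores of at least 2, 98.7% with regions of at least 400 bp and 94.7% by covered bases. With regions of at least 400 bp the promoter share was 22.5%, the exon share 59.6%, the coding share 75.5%, the share overlapping a common region 63.6%, and 92 genes had a region. The promoter share was 15.1% with a limit of 500 bp, and the exon share 73.2% when exons were assigned before promoters. The share overlapping a common region was 22.4% when at least 50% of the region had to be shared, 73.8% within 1 kb and 40.9% with scores of at least 2. With soft-masked bases in place of annotated TEs, 37.9% of NelfA-higher regions counted as repeats; soft-masking includes simple repeats, and 80.9% of windows of 300 bp along the arm held such bases. Leaving out the 58 regions of dpy, an alternative chosen after seeing the data, as were all those on the coding share, moved none of the 8 results it was run on beyond these limits (NelfA-higher share 91.9%, coding share 67.8%). Leaving out regions in TE copies, also chosen after seeing the data, took the neuronal list from 7 to 6 genes. The unknown depth and replicate spread limit every statement to the lists as deposited.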
